A study of Homo sapiens with 12 samples.

Results

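HBC4 is a human breast cancer cell line, and the comparison set its gene expression against that of PC-3, a prostate cancer line, and MKN74, a gastric cancer line. The members were the 4 arrays labelled HBC4, of 12 arrays in all, and the other 8 arrays were 4 of PC-3 and 4 of MKN74. The series was made to study oligonucleotides that fold into G-quadruplexes (G4), stacked structures of 4 guanine-rich strands or stretches. In each line 1 array was hybridised for each of 4 treatments: the reagent alone, the control RNA (uuaccc)4, the G4 RNA (uuaggg)4 and the G4 DNA aptamer AS1411. All cells, those given the reagent alone included, went through reverse transfection with Lipofectamine RNAiMAX, about 100 pmol of oligonucleotide per well for 300000 cells where one was given. They were then kept on a low-adhesion surface, and total RNA was taken after 72 h and labelled from 100 ng on an Affymetrix human array. Each cancer type is represented by 1 line, so a difference is one between these lines and not between breast, prostate and gastric cancer. The 4 arrays of a line stand for 4 treatments and the labels name no separate cultures, so each p-value measures only the spread between arrays.

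Cell lines keep part of the expression of the tissue they came from. Breast epithelium has an inner luminal layer, which responds to oestrogen and makes milk proteins, and an outer basal layer with its own keratins. MHC class II molecules, which present peptides to helper T cells, are made mainly by dendritic cells, macrophages and B cells, and epithelial cells can make them after interferon-gamma. In bulk RNA, fewer cells of a type and less RNA per cell cannot be told apart.

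The deposited values are log2 expression values centred on the median of each probe set over the 12 arrays. A value of 0 is therefore the middle array of that probe set, not absence, and no level or detection call can be given. The difference of a gene is the HBC4 mean minus the mean of the PC-3 and MKN74 means, with the standard error (SE) of the fit. A large difference can therefore come mainly from a single line. Over the 19775 genes tested the median difference was 0.0017, with quartiles of -0.35 and 0.24. HBC4 arrays correlated with each other at 0.889 to 0.954, with PC-3 arrays at -0.217 to -0.173 and with MKN74 arrays at -0.226 to -0.178, and centring lowers the values between lines.

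A gene was called set apart when HBC4 differed from both lines by at least 2-fold in the same direction, with both adjusted p-values under 0.05 (limma, Benjamini-Hochberg), and when the 4 HBC4 arrays lay beyond the 8 others. Arrays without overlap and low adjusted p-values are thus conditions of the call. Where given for a set-apart gene, they describe it and add no support. HBC4 was set apart by 870 genes that were higher (4.4% of those tested) and 632 that were lower (3.2%). Of these, 194 were higher and 96 lower by at least 8-fold against each line. By the same rule 2609 genes set PC-3 apart and 2450 set MKN74 apart. Among the 1502 genes of HBC4 the size of the difference had a median of 2.17, and its range over the 4 treatments had a median of 0.52. Of these genes 478 had 1 probe set and 1024 had several. Among the 1024, the sign was the same in all probe sets for 826, and in 198 another probe set had the opposite sign. A call rests on a single probe set per gene, and the others can differ less. Against PC-3 alone HBC4 was at least 2-fold higher with an adjusted p under 0.05 for 10.3% of genes and lower for 12.7%. Against MKN74 the shares were 10.8% higher and 11.1% lower. In the plot of both differences the rule places the set-apart genes in opposite corners.

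**Figure D1:**
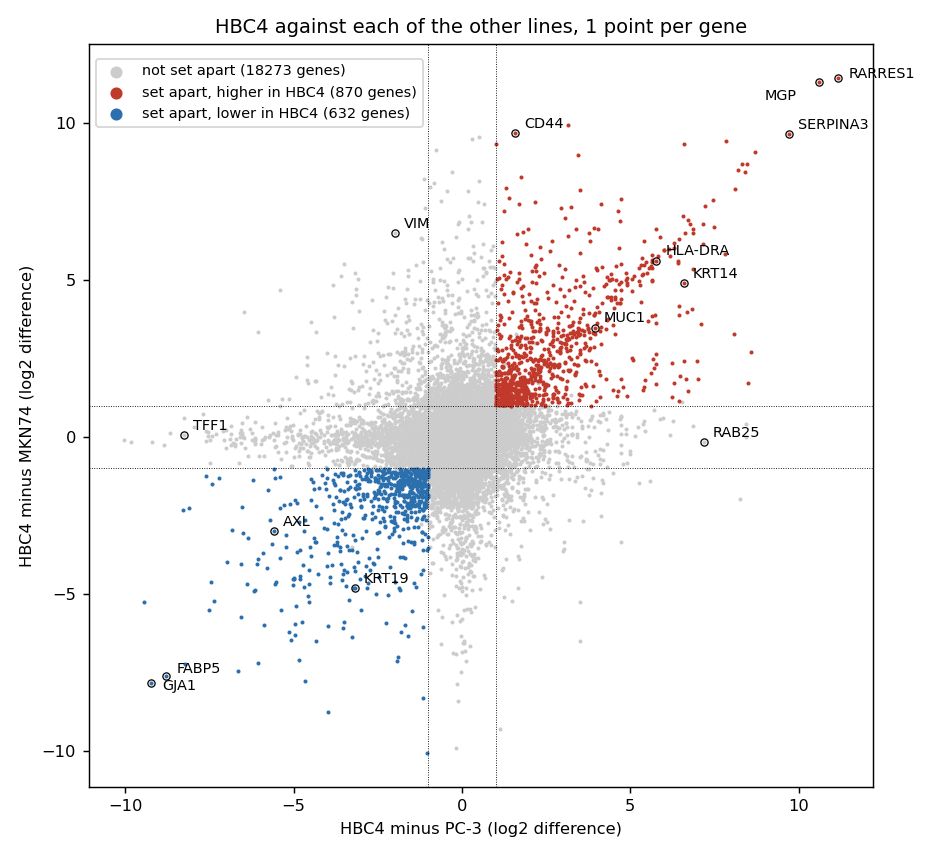
Each point is a gene, with the HBC4 minus PC-3 difference on the horizontal axis and the HBC4 minus MKN74 difference on the vertical axis, both in log2, and dotted lines at 1 and -1. The 870 genes set apart as higher lie at the upper right and the 632 set apart as lower at the lower left, while RAB25, TFF1 and VIM are examples of genes outside both corners.

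The highest differences were those of RARRES1, MGP and SERPINA3. RARRES1, a retinoid-responsive membrane protein gene, had values of 11.20, 11.20, 11.10 and 11.06 in HBC4 (reagent alone, (uuaccc)4, (uuaggg)4 and AS1411, the order kept below), against -0.28, 0.20, -0.03 and 0.03 in PC-3 and -0.22, -0.15, -0.37 and -0.52 in MKN74. All 4 HBC4 arrays were high, and the PC-3 and MKN74 arrays lay close together. Its difference was 11.31 ± 0.09 (SE), the highest of all genes set apart (adjusted p = 3.59e-15, limma with Benjamini-Hochberg), and its 3 probe sets gave 9.10 to 11.31. MGP, the matrix Gla protein that inhibits calcification, had 10.54, 10.59, 10.59 and 10.53 in HBC4, against 0.05, -0.05, 0.05 and -0.18 in PC-3 and -1.16, -0.66, -0.72 and -0.57 in MKN74. No HBC4 array overlapped the others, which the rule requires, and the difference was 10.97 ± 0.10 (adjusted p = 1.76e-14).

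SERPINA3, the acute-phase protease inhibitor alpha-1-antichymotrypsin, had 9.70, 9.64, 9.69 and 9.52 in HBC4, against 0.06, 0.00, -0.25 and -0.14 in PC-3 and -0.02, -0.07, 0.00 and -0.03 in MKN74. The HBC4 arrays were uniformly high and the difference was 9.69 ± 0.07 (adjusted p = 3.13e-15). SFRP1, a secreted antagonist of Wnt ligands, had 8.25, 8.13, 8.49 and 8.40 in HBC4, against 0.17, -0.15, 0.05 and -0.05 in PC-3 and -0.36, -0.20, -0.55 and -0.41 in MKN74. Its HBC4 arrays again stood apart from both lines (difference 8.51 ± 0.10, adjusted p = 1.41e-13), although the lowest of its 4 probe sets gave -0.05.

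Further genes of matrix or secreted proteins among the 20 highest were EFEMP1 (fibulin-3, 8.58), TGFBI (an adhesion protein of the matrix, 8.36), TIMP3 (an inhibitor of matrix metalloproteinases, 7.98), FREM2 (a basement membrane protein, 6.82) and CHI3L1 (a chitinase-like protein, 6.78). EREG, a ligand of the EGF receptor family, differed by 8.64 ± 0.12. Cell adhesion genes were CDH19, a cadherin known from Schwann cells, at 8.44 ± 0.09, and NCAM1, the neural cell adhesion molecule, at 6.98 ± 0.09. The glutamate transporter SLC1A6 differed by 8.01 and the amino acid transporter SLC6A14 by 6.81. NRN1 (neuritin, 7.51), TM4SF18 (7.30), PRXL2A (7.09), the GPI-anchored GAS1 (6.82) and AZGP1, described with the breast genes, made up the list, and 1 further gene among the 20 is not reported here.

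Among the genes lower in HBC4, gap junction, fatty acid binding and prostaglandin genes came first. GJA1, a connexin of gap junctions, had -7.42, -7.94, -7.78 and -7.75 in HBC4, against 1.53, 1.62, 1.36 and 1.5 in PC-3 and -0.91, -0.82, 1.36 and 0.82 in MKN74. HBC4 was low on every array, while the MKN74 arrays themselves fell into a higher pair with the G4 oligonucleotides and a lower pair with the controls. The difference was -8.53 ± 0.33 (adjusted p = 9.17e-10). FABP5, a fatty acid binding protein, had -7.54, -7.93, -7.20 and -7.89 in HBC4, against 1.27, 1.10, 1.08 and 1.14 in PC-3 and 0.05, 0.08, -0.05 and -0.12 in MKN74. The difference was -8.21 ± 0.11 (adjusted p = 3.03e-13), and FABP4 of the same family differed by -7.34 ± 0.34.

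PTGS2, the inducible cyclooxygenase COX-2, had -6.53, -6.97, -6.62 and -6.47 in HBC4, against 0.30, 0.45, -0.46 and -0.30 in PC-3 and 0.99, 0.60, 0.75 and 0.89 in MKN74. The HBC4 arrays were all low, and the difference was -7.05 ± 0.16 (adjusted p = 1.00e-11). HPGD, the dehydrogenase that inactivates prostaglandins, differed by -7.73 ± 0.12, so the genes of a making and of a degrading enzyme were both lower. The remaining genes of the 12 lowest were the cholesterol exporter ABCG1 (-6.62), the collagenase MMP1 (-6.51), CLIC3 (-6.36), TMEM45B (-6.29), the Src-family kinase FYN (-6.21), NEBL (nebulette, -6.16) and the adaptor GRB10 (-6.03).

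**Figure D2:**
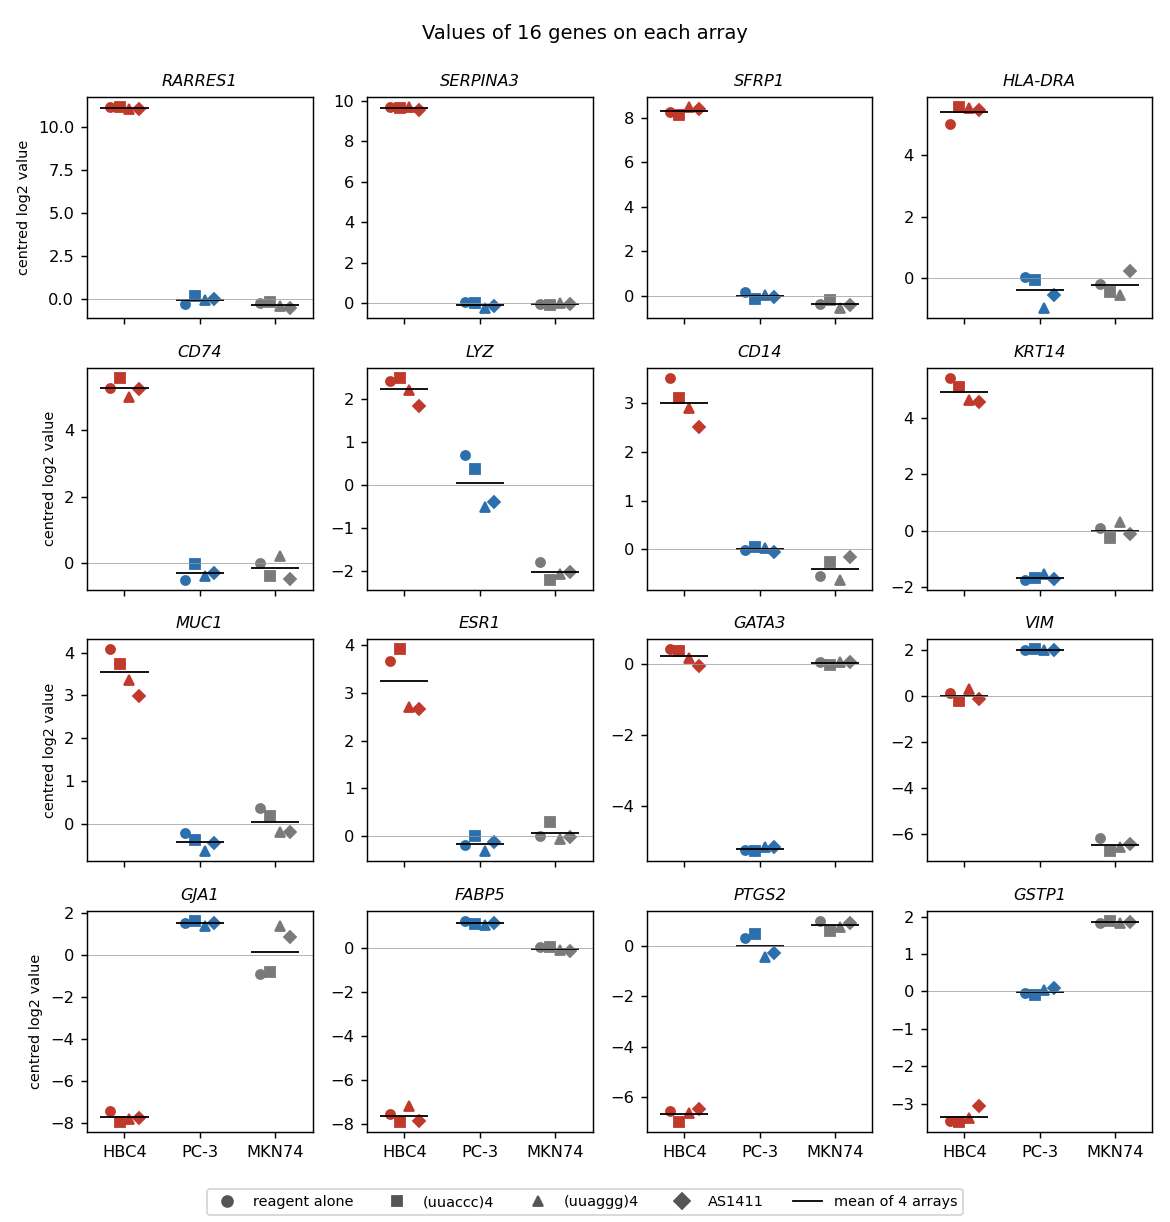
Each panel gives the centred log2 value of 1 gene on the 12 arrays, with HBC4 at the left, then PC-3 and MKN74; marker shapes give the treatment and the black lines the mean of 4 arrays. RARRES1, SERPINA3 and HLA-DRA are high and GJA1, FABP5 and PTGS2 low on all HBC4 arrays, whereas GATA3 differs from PC-3 alone and VIM lies between the other lines.

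The breast label was checked against luminal markers, of which 3 of 10 (ESR1, TRPS1 and SCGB2A2) were higher in HBC4 and 1 (KRT19) was lower. Of the wider luminal list, 4 of 25 measured genes were set apart as higher and 2 as lower, with a median difference of 0.12. Against PC-3 alone 9 of the 25 were at least 2-fold higher and 10 lower, and against MKN74 alone 7 were higher and 3 lower. For all genes the shares were 10.3% higher and 12.7% lower against PC-3, and 10.8% and 11.1% against MKN74. The lower ones against PC-3 included genes typical of oestrogen-responsive and secretory cells: TFF1 (-8.24), CA12 (-6.53), TFF3 (-5.70), AGR2 (-3.81) and SPDEF (-3.43). AGR2 was in turn 4.85 above MKN74, and the others were within 0.16 of MKN74. ESR1, the oestrogen receptor, had 3.67, 3.91, 2.70 and 2.67 in HBC4, against -0.19, -0.01, -0.31 and -0.12 in PC-3 and 0.01, 0.29, -0.05 and -0.03 in MKN74. HBC4 was high throughout, with its G4 arrays lower than its control arrays (difference 3.29 ± 0.16, adjusted p = 5.65e-09). This rests on 1 of the 9 ESR1 probe sets: the others were not set apart, and the lowest gave -0.07. With the probe sets averaged the ESR1 difference was 0.35 and no longer set apart. The prolactin receptor PRLR (3.56), the transcription factor MYB (3.13) and TRPS1 (2.67), a GATA-type repressor of breast epithelium, were also higher, with 4 of 7, 1 of 2 and 4 of 4 probe sets called.

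GATA3, a transcription factor of luminal cells, had 0.41, 0.37, 0.15 and -0.07 in HBC4, against -5.25, -5.26, -5.16 and -5.17 in PC-3 and 0.06, -0.04, 0.04 and 0.06 in MKN74. HBC4 and MKN74 overlapped and PC-3 was low, with HBC4 minus PC-3 at 5.43 and HBC4 minus MKN74 at 0.18. FOXA1, which opens chromatin for the oestrogen receptor, was lower in HBC4 than in PC-3 (-5.98) and differed from MKN74 by -0.23 (adjusted p = 0.13). The progesterone receptor gene PGR differed by -0.09 from PC-3 and -0.31 from MKN74, and neither passed the test. KRT19, a keratin of simple epithelia, had -2.79, -3.23, -3.16 and -3.60 in HBC4, against -0.16, -0.09, 0.09 and 0.11 in PC-3 and 1.74, 1.72, 1.51 and 1.51 in MKN74. HBC4 was the lowest line on every array (difference -4.0 ± 0.12, adjusted p = 1.06e-10). Of the 2 KRT19 probe sets 1 was called, and the other gave -0.27. TBX3, a T-box factor of mammary development, was lower by -1.72, with 1 of 7 probe sets called, and lost its call when they were averaged.

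Of 18 mammary secretory genes 4 were set apart, all higher, and the list's median was 0.14. AZGP1, a zinc-binding glycoprotein secreted by breast and prostate epithelium, had 8.77, 8.64, 8.79 and 8.47 in HBC4, against -0.38, 0.08, -0.08 and 0.19 in PC-3 and -0.58, -0.23, -0.55 and -0.34 in MKN74. The HBC4 arrays formed a tight high group (difference 8.90 ± 0.11, adjusted p = 2.07e-13). XDH, which takes part in milk fat secretion, differed by 2.81, PIGR, the carrier of secreted antibodies, by 2.25 ± 0.40 and SCGB2A2 (mammaglobin) by 1.23. PIGR was not set apart in the G4 arrays alone, nor SCGB2A2 in the control arrays alone or without the AS1411 array of HBC4 or of MKN74. The casein genes CSN2 and CSN3 gave 0.09 and 0.33 against PC-3 and were not set apart.

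Of 13 measured basal epithelium genes 5 were higher and 0 lower, with a median of 0.96. KRT14, the basal keratin, had 5.42, 5.11, 4.63 and 4.56 in HBC4, against -1.72, -1.68, -1.51 and -1.71 in PC-3 and 0.12, -0.25, 0.30 and -0.12 in MKN74. HBC4 was clear of both lines (difference 5.75 ± 0.14, adjusted p = 2.31e-11). KRT15 (4.21), the desmosomal cadherin DSG3 (4.26), P-cadherin CDH3 (3.83) and the laminin chain LAMB3 (2.44) were the others. DSG3 was 6.65 above PC-3 but 1.86 above MKN74, and LAMB3 was 3.62 above MKN74 but 1.26 above PC-3. KRT5, the usual partner of KRT14, was lower in HBC4 than in MKN74 (-4.82) and differed by 0.11 from PC-3, and KRT17 and TP63 have no probe set named here. Over 17 keratins, 5 were higher and 1 lower, and KRT7 (5.28) and KRT16 (3.77) were among the higher, KRT16 not in the G4 arrays alone. KRT16 was 6.2 above PC-3 but 1.3 above MKN74. KRT7 was called in 1 of 4 probe sets, with the lowest at 0.03.

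Epithelial adhesion genes separated HBC4 mainly from PC-3. Of 29 measured, 24 were at least 2-fold higher than in PC-3 and 0 lower, while 8 were higher and 4 lower than in MKN74. Among all genes 10.3% were higher and 12.7% lower than in PC-3, and 10.8% higher and 11.1% lower than in MKN74. Those set apart from both were MUC1, ELF3, CLDN1, CDH1, EHF, DSG2 and CLDN4, 7 in all, and the median difference of the list was 1.35. With averaged probe sets CLDN4, EHF and DSG2 lost their call, DSG2 also without the HBC4 array of the reagent alone, the HBC4 array of (uuaggg)4 or the MKN74 array of (uuaggg)4. CDH1, the E-cadherin of epithelial junctions, had 1.61, 0.91, 1.38 and 1.09 in HBC4, against -1.58, -1.88, -1.39 and -1.45 in PC-3 and -0.05, 0.08, -0.07 and 0.05 in MKN74. HBC4 was the highest line, PC-3 the lowest (difference 2.03 ± 0.11, adjusted p = 2.58e-08). MUC1, a membrane mucin of glandular cells, had 4.07, 3.73, 3.36 and 2.99 in HBC4, against -0.22, -0.37, -0.63 and -0.44 in PC-3 and 0.36, 0.18, -0.19 and -0.18 in MKN74. Here both other lines were low (difference 3.72 ± 0.10, adjusted p = 5.30e-11), and MUC16 (4.74) and MUC20 (2.99) completed the 3 of 14 mucins set apart. RAB25, a vesicle protein of epithelia, was 7.18 above PC-3 and -0.17 from MKN74, and the epithelial protease ST14 was 6.28 above PC-3 and 0.50 above MKN74.

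Mesenchymal genes showed no common direction: 5 of 32 were higher and 3 lower, with a median of 0.26. VIM (vimentin, the mesenchymal intermediate filament) had 0.14, -0.23, 0.29 and -0.14 in HBC4, against 2.0, 2.03, 2.01 and 1.99 in PC-3 and -6.18, -6.74, -6.58 and -6.46 in MKN74. HBC4 lay between the lines without overlap and so is not set apart. ZEB1, a repressor of E-cadherin, was lower than in PC-3 by -6.35 and differed from MKN74 by -0.61, and N-cadherin CDH2 was lower than in PC-3 by -4.60 and differed from MKN74 by 0.00. The higher genes were TGFBI, the hyaluronan receptor CD44 (5.63, called in 10 of 13 probe sets), the gelatinase MMP2 (4.45), ACTA2 (3.63) and fibronectin FN1 (3.46). CD44 was 9.7 above MKN74 but 1.6 above PC-3, and FN1 was 5.2 above MKN74 but 1.7 above PC-3. MMP2 was called in 1 of 3 probe sets, with the lowest at 0.01. The receptor kinase AXL (-4.30), CCN2 (-2.92) and S100A4 (-1.78) were lower. Among 30 basement membrane and collagen genes 7 were higher and 0 lower, led by COL11A1 (5.52) and COL8A1 (5.02), while the fibrillar COL1A1 of the fibroblast list was lower (-3.56). COL1A1 and ACTA2 lost their call with averaged probe sets.

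MHC class II genes were among the lists with the largest share of members set apart, 7 of 18 higher and 0 lower, with a median difference of 0.87. The share was 38.9%, against 4.4% of all genes. Lists and members were chosen with earlier results of these data known, and HLA-DRA and CD74 were given as markers, so the share is a description. CTSS is counted here and also in the myeloid and lysosomal lists. HLA-DRA, the invariant alpha chain of HLA-DR, had 5.02, 5.57, 5.53 and 5.47 in HBC4, against 0.04, -0.04, -0.97 and -0.54 in PC-3 and -0.19, -0.43, -0.53 and 0.24 in MKN74. All HBC4 arrays were high and both other lines overlapped near 0 (difference 5.70 ± 0.19, adjusted p = 2.23e-10). CD74, the invariant chain that escorts class II molecules, had 5.26, 5.54, 4.99 and 5.23 in HBC4, against -0.48, -0.02, -0.38 and -0.28 in PC-3 and 0.02, -0.38, 0.21 and -0.47 in MKN74. The pattern was that of HLA-DRA (difference 5.48 ± 0.14, adjusted p = 3.44e-11), though 1 of 3 CD74 probe sets was called and the lowest gave 0.06.

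The other class II genes higher in HBC4 were the chains HLA-DPA1 (4.29 ± 0.19) and HLA-DPB1 (3.49 ± 0.10), the peptide loading factor HLA-DMA (3.77 ± 0.12), its modulator HLA-DOB (1.46 ± 0.11) and CTSS (4.53 ± 0.20), the cathepsin that cleaves the invariant chain. HLA-DRB1 was 3.54 above PC-3 but -0.61 from MKN74, and HLA-DQB1 was below MKN74 (-2.0). CIITA, the activator of class II transcription, was higher than in PC-3 by 0.59 (adjusted p = 0.00199) and than in MKN74 by 0.57 (adjusted p = 0.0025), both under 2-fold. HLA genes are near-identical in parts, so their probe sets may share signal. HLA-DOB was not set apart with averaged probe sets (0.79) or in the G4 arrays alone.

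Class II promoters carry a Y box, bound by the factor NF-Y, whose core is ATTGG, and beside it an X box bound by RFX. Read on the other strand the core is CCAAT. Of the 7 class II genes set apart, 5 had an entry in the RefSeq promoter table of GRCh38.p14, and 4 of these held the core in the 150 bases before the gene start. The core occurred in 23.5% of all 35116 windows of this length, searched on both strands. The promoters of the 4 genes are shown because they share this element, 5′ to 3′ on the gene's strand with each core in capitals.
HLA-DPB1 (chr6:33075840-33075989, plus strand): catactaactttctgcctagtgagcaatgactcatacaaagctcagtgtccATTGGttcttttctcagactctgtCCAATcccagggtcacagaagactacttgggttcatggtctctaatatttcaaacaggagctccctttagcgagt
HLA-DMA (chr6:32953098-32953247, minus strand): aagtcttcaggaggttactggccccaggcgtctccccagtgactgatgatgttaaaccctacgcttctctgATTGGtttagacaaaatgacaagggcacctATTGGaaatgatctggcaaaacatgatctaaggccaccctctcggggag
HLA-DOB (chr6:32817003-32817152, minus strand): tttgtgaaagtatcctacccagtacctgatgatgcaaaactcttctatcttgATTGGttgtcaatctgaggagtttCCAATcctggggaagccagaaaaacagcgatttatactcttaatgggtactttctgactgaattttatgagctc
CD74 (chr5:150412911-150413060, minus strand): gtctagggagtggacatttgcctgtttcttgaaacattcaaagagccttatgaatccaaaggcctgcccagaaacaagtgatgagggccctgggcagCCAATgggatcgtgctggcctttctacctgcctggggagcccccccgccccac

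Counted from the gene start, the first core base is at -99 in HLA-DPB1, -79 in HLA-DMA and -98 in HLA-DOB, each of which holds another core nearer the start, and at -53 in CD74. The letters describe these windows and do not show that a factor binds there.

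MHC class I genes, which present peptides from inside the cell, were also higher in HBC4, with 8 of 17 higher, 0 lower and a median of 1.67. The immunoproteasome subunits PSMB9 (3.71), PSMB8 (3.71) and PSMB10 (2.90), the class I activator NLRC5 (2.27), the peptide transporter TAP2 (1.67) and the heavy chains HLA-B (2.41), HLA-F (2.26) and HLA-C (1.66) were higher. PSMB8 was 6.22 above MKN74 and 1.2 above PC-3, and was not set apart in the control arrays alone or without the AS1411 array of PC-3. B2M, the light chain, was above PC-3 by 0.53 and above MKN74 by 0.39. In the interferon-stimulated list 2 of 37 genes were higher, BST2 (tetherin, 3.48) and IFITM2 (1.69), and the median was -0.08. This share of 5.41% was near the 4.4% of all genes. Against PC-3 alone 5 of the 37 were at least 2-fold higher and 6 lower, and against MKN74 alone 13 were higher and 11 lower. The shares of all genes were 10.3% and 12.7% against PC-3, and 10.8% and 11.1% against MKN74.

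**Figure D3:**
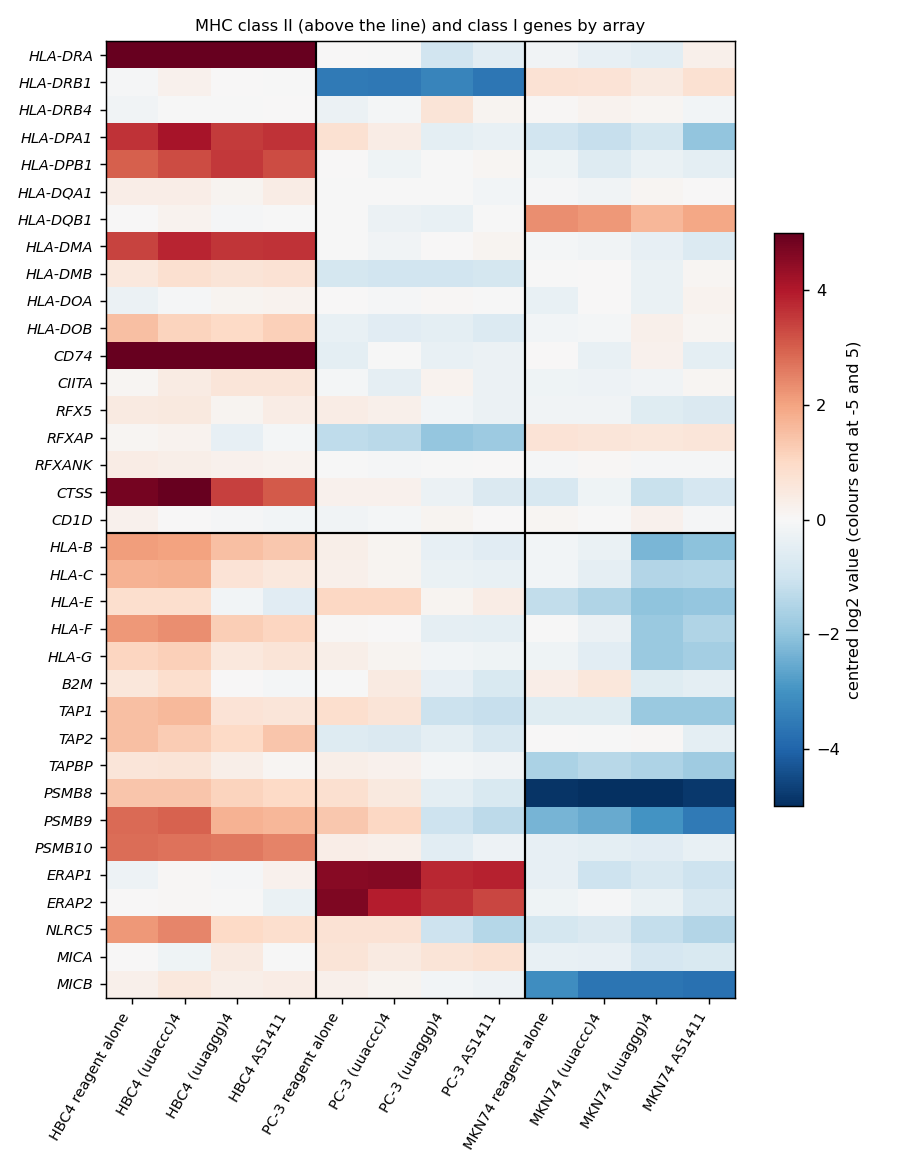
Rows are MHC class II genes (above the line) and class I genes (below it), columns the 12 arrays with HBC4 first, and colour gives the centred log2 value from -5 (blue) to 5 (red). HLA-DRA, CD74, HLA-DPA1, HLA-DPB1 and HLA-DMA are deep red on the 4 HBC4 arrays alone, while HLA-DQB1 is red on the MKN74 arrays and ERAP1 and ERAP2 on the PC-3 arrays.

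Of 17 myeloid genes 3 were higher, LYZ, CD14 and CTSS. LYZ, lysozyme, had 2.43, 2.5, 2.23 and 1.86 in HBC4, against 0.71, 0.38, -0.51 and -0.38 in PC-3 and -1.78, -2.20, -2.07 and -2.02 in MKN74. The lines formed 3 steps without overlap of HBC4 (difference 3.24 ± 0.15, adjusted p = 5.05e-09). CD14, a receptor for bacterial lipopolysaccharide, had 3.52, 3.12, 2.90 and 2.5 in HBC4, against -0.02, 0.05, 0.02 and -0.05 in PC-3 and -0.54, -0.26, -0.62 and -0.15 in MKN74. HBC4 was high on each array (difference 3.21 ± 0.15, adjusted p = 4.63e-09).

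Averaged over HLA-DRA, CD74, LYZ and CD14, array values ran from 3.76 to 4.18 in HBC4, against -0.46 to 0.09 in PC-3 and -0.82 to -0.60 in MKN74. The defining genes of blood-derived cells did not follow. The pan-leukocyte gene PTPRC differed by 0.12, the myeloid factor SPI1 by 0.21, the receptor CSF1R by 0.34, the integrin ITGAM by 0.35, and the adaptors TYROBP and FCER1G by 0.05 and 0.03. Lymphoid genes counted 0 of 11 in either direction, with a median of -0.19. Since values are centred, a difference near 0 does not tell a gene absent in all lines from one equally present.

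Complement and acute-phase genes were set apart in both directions, 6 of 20 higher and 3 lower. Beside SERPINA3 the higher ones were LCN2 (lipocalin-2, which binds bacterial siderophores, 6.69), complement C3 (4.67), the complement regulator CFI (4.44), SERPINA1 (alpha-1-antitrypsin, 4.17) and complement factor B, CFB (3.00). SERPINA1 was 6.53 above MKN74 but 1.82 above PC-3. Lower were CFD (complement factor D, -3.43), CLU (clusterin, -3.27) and the complement inhibitor CD55 (-2.09). Of 31 chemokines and cytokines 6 were higher, among them TNFSF15 (4.98), the oncostatin M receptor OSMR (4.23), CXCL16 (3.40) and CXCL10 (3.11), and IL11 (-2.10), CCL20 (-1.95) and IL6R (-1.54) were lower, IL11 not with averaged probe sets. OSMR was 7.22 above MKN74 but 1.25 above PC-3.

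**Figure D4:**
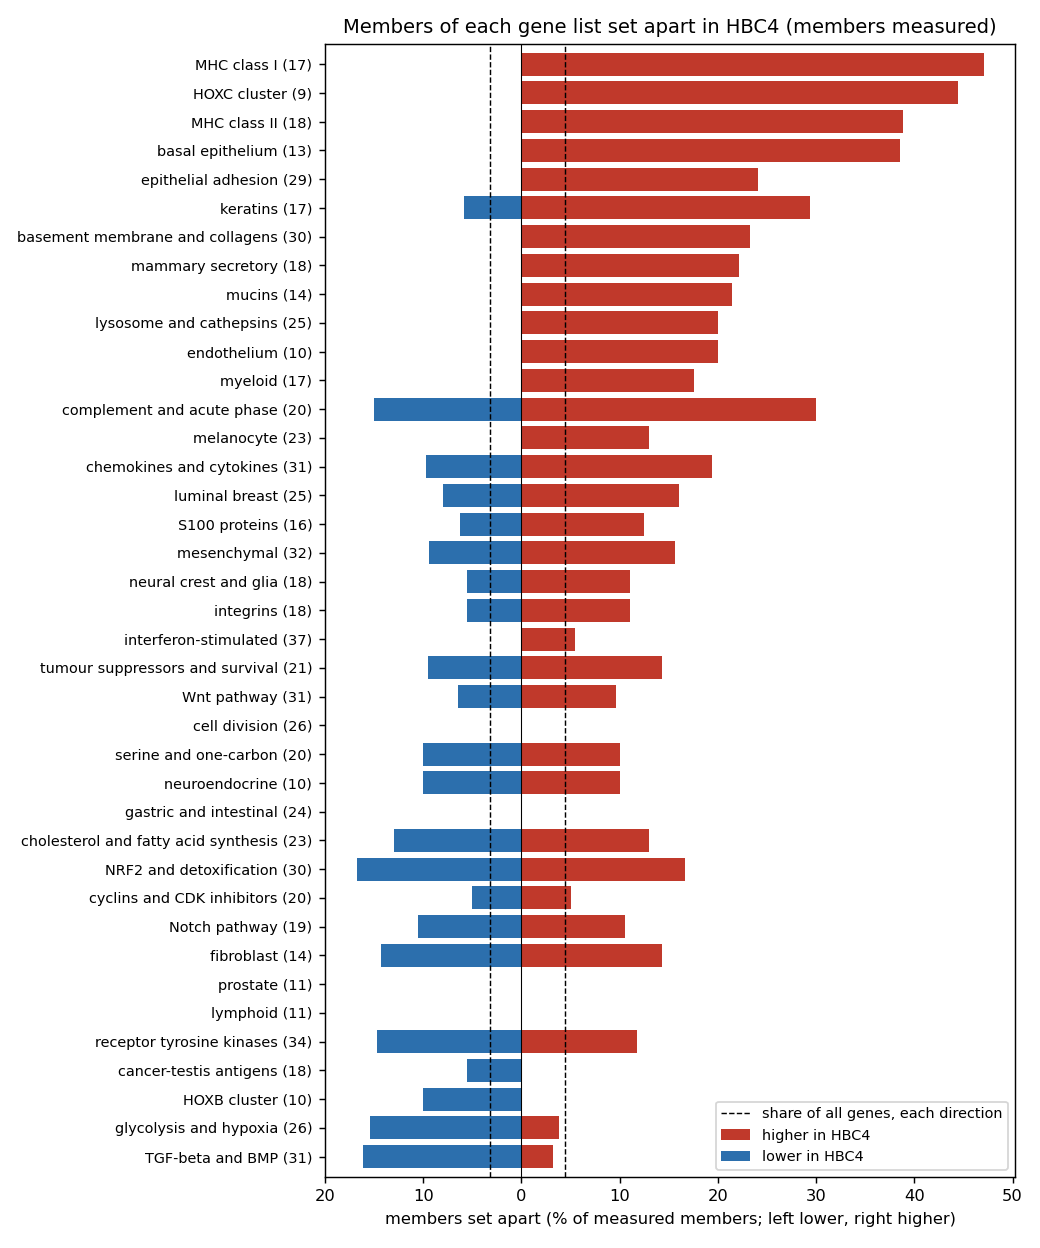
Bars give, for each gene list with at least 9 measured members (number in brackets), the share of members set apart as higher in HBC4 to the right and lower to the left, in percent. Dashed lines mark the shares over all genes, 4.4% higher and 3.2% lower. MHC class I (8 of 17) is at the top and TGF-beta and BMP (1 of 31 higher, 5 lower) at the bottom. Lists and members were chosen with earlier results of these data known, so the order of the bars is a description.

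Melanocyte genes were checked because S100B was higher in HBC4 (4.40, in 1 of 2 probe sets). Of 23 measured, RAB27A (2.22), which moves melanosomes, and the endothelin receptor EDNRB (1.11) were also higher and 0 were lower. The defining genes were not: SOX10 differed by 0.18, MLANA by 0.10, TYR by 0.03 and PMEL by -0.29. In the neural crest and glia list SOX6 (6.16) and L1CAM (2.41) were higher and the intermediate filament nestin, NES (-3.06), lower. The neuroendocrine genes CHGA and SYP differed by 0.13 and 0.09 in the same arrays in which NCAM1 was high. Prostate (11 measured) and gastric and intestinal lists (24 measured) had 0 members set apart from both lines in either direction. Against PC-3, 4 of 11 prostate genes and 7 of 24 gastric and intestinal genes were at least 2-fold lower and 0 higher. Examples were the prostate homeobox gene HOXB13 (-4.86) and the trefoil factor TFF2 (-8.26). Over all genes 12.7% were lower than in PC-3 and 10.3% higher. Against MKN74, 3 of 11 prostate genes were higher and 0 lower, and 3 of 24 gastric and intestinal genes were higher and 1 lower. The shares of all genes were 10.8% higher than in MKN74 and 11.1% lower. TFF2 was 0.60 above MKN74. The position genes of the HOXC cluster were higher in 4 of 9, HOXC10 (4.02), HOXC4 (1.82), HOXC13 (1.60) and HOXC9 (1.33), with a list median of 1.03. In the HOXB cluster 1 of 10 was set apart, HOXB3 (-2.10), and 0 of 8 in the HOXD cluster. EDNRB, L1CAM and HOXC9 lost their call in the G4 arrays alone and without some single arrays, and EDNRB, L1CAM and HOXB3 with averaged probe sets.

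Signalling genes were set apart in both directions. Of 34 receptor tyrosine kinases 4 were higher and 5 lower: FGFR2 (3.51), NTRK2 (2.91), ROR1 (2.67) and KDR (2.15), against AXL, its relative MERTK (-3.14), EPHA2 (-1.84), EPHB6 (-1.66) and the insulin receptor INSR (-1.38). In FGFR2, 3 of 11 probe sets were called and the lowest gave -0.14. ERBB2, the HER2 receptor, was 1.53 above PC-3 and 0.36 above MKN74 and is not set apart. Of 31 Wnt pathway genes 3 were higher, SFRP1, the ligand WNT5B (3.12) and the receptor FZD3 (1.13). The feedback genes AXIN2 (-3.14) and RNF43 (-3.04), known Wnt targets, were lower. In the Notch pathway the target gene HEY1 (-3.34) and the feedback gene NRARP (-1.71) were lower and LFNG (2.30) and MAML2 (2.13) higher. HEY1 differed by -5.40 from PC-3 and by -1.28 from MKN74. With averaged probe sets FGFR2, NTRK2, WNT5B, FZD3, AXIN2 and LFNG lost their call, and ROR1 and FZD3 did so in the G4 arrays alone. ROR1 also lost it without the (uuaccc)4 array of HBC4 or of PC-3.

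TGF-beta and BMP genes leaned lower, 5 of 31 lower and 1 higher, with a median of -0.61. They were the co-receptor TGFBR3 (-5.32), the latency protein LTBP1 (-3.30), SMAD9 (-3.01) and the BMP target genes ID2 (-2.06) and ID3 (-1.73), while the activin subunit INHBA was higher (3.09). LTBP1 differed by -5.58 from PC-3 and by -1.02 from MKN74. INHBA was 5.08 above MKN74 but 1.09 above PC-3. LTBP1 and INHBA lost their call with averaged probe sets and without the (uuaggg)4 array of HBC4, and LTBP1 also in the control arrays alone and without 3 other single arrays. Of 18 integrins ITGA4 (5.33, in 4 of 4 probe sets) and ITGB5 (2.28) were higher and the fibronectin receptor chain ITGA5 lower (-1.67). Endoglin ENG (3.63), a TGF-beta co-receptor of endothelium, was higher beside KDR, and both belong to the endothelium list, of which 2 of 10 were set apart.

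Of 30 NRF2 and detoxification genes 5 were higher and 5 lower. GSTP1, a glutathione transferase, had -3.46, -3.49, -3.37 and -3.06 in HBC4, against -0.03, -0.09, 0.03 and 0.08 in PC-3 and 1.83, 1.89, 1.84 and 1.85 in MKN74. HBC4 was low on every array (difference -4.27 ± 0.07, adjusted p = 1.67e-12). The transferases GSTM3 (-3.83) and GSTA4 (-3.71), the cystine transporter SLC7A11 (-2.41) and TXNRD1 (-1.86) were lower as well. The steroid and aldehyde reductases AKR1C2 (4.17) and AKR1C1 (4.02), which are close in sequence and may share probe signal, the drug exporter ABCG2 (3.87), CYP1B1 (2.20) and NQO1 (2.08) were higher.

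In metabolism, 4 of 26 glycolysis and hypoxia genes were lower and 1 higher: the glucose transporter SLC2A3 (-5.55, of which -10.07 against MKN74 and -1.04 against PC-3), ENO2 (-2.13), NDRG1 (-1.44), KDM3A (-1.22) and, higher, VEGFA (1.43). Among 23 cholesterol and fatty acid genes, ELOVL6 (4.16), ACSL1 (2.73) and INSIG1 (1.53) were higher, and SQLE (-1.42) was lower with FABP4 and FABP5. In the serine and one-carbon list CBS (2.84) and ASS1 (2.07) were higher and CTH (-2.69) and PSPH (-2.57) lower. Lysosomal genes were higher in 5 of 25 and lower in 0, among them CTSC (3.84), CTSZ (2.85, not with averaged probe sets) and CTSD (2.06). SLC2A3, KDM3A, VEGFA, SQLE and PSPH lost their call with averaged probe sets, SLC2A3, KDM3A and CTH in the control arrays alone, and VEGFA, SQLE and INSIG1 in the G4 arrays alone. SLC2A3, KDM3A, SQLE, INSIG1 and ASS1 also lost it without some single arrays. HEXA (6.38) was called in 1 of 4 probe sets, with the lowest at 0.02.

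Of 26 cell division genes 0 were set apart from both lines at once in either direction. At least 2-fold, 19 of 26 were higher than in PC-3 and 5 lower than in MKN74, against 10.3% and 11.1% of all genes. MKI67, the proliferation marker, was 2.12 above PC-3 and -0.78 from MKN74, and TOP2A was 3.08 above PC-3 and 0.46 above MKN74. The CDK inhibitor CDKN1C was lower (-4.40, in 4 of 5 probe sets), and cyclin A1, CCNA1, was higher (1.72). Of the survival genes the death receptor FAS (3.51), CASP1 (2.89) and BAX (1.82) were higher, and BIK (-2.57) and BCL2L1 (-1.42) lower, BCL2L1 not with averaged probe sets.

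The last comparison asked whether the differences of HBC4 depended on the oligonucleotides. For each gene the difference in the G4 arrays ((uuaggg)4 and AS1411) was set against that in the control arrays (reagent alone and (uuaccc)4). Within a line the unlike treatments of a class served as its replicates, without repeats of the same treatment. The SE and p-values of the change therefore rest on the spread between those treatments. It changed past an adjusted p of 0.05 (limma, Benjamini-Hochberg) for 49 genes, 0.248% of those tested, with 2465 at an unadjusted p under 0.05. Quantile normalization gave 186 genes. Of the 1502 genes set apart, 21 were among them, 16 higher and 5 lower in HBC4. In 15 the difference was smaller in the G4 arrays and in 6 larger. It kept its sign in each, which the call of set-apart genes requires. PIGR differed by 0.98 in G4 arrays and 3.51 in control arrays, a change of -2.53 ± 0.27 (SE, adjusted p = 0.00777). Its values were 1.36 and 0.58 in the G4 arrays of HBC4, against 3.17 and 3.56 in the control arrays, while PC-3 and MKN74 stayed between -0.37 and 0.10. CARD16, an inhibitor of caspase-1, differed by 1.11 in G4 arrays and 3.07 in control arrays (change -1.96 ± 0.14, adjusted p = 4.14e-04).

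For BST2 the difference was larger, 4.30 in G4 arrays and 2.66 in control arrays (change 1.65 ± 0.22, adjusted p = 0.0224), although BST2 was lower with the G4 oligonucleotides in all 3 lines. HBC4 had 1.54 and 1.42 in G4 arrays, against 2.64 and 2.76 in control arrays. PC-3 had -3.12 and -3.75 in G4 arrays, against 0.67 and 0.35 in control arrays, and MKN74 had -2.18 and -2.23, against -0.35 and -0.49. The gap was widest in PC-3, so the larger difference of HBC4 is not a higher value in HBC4. Over the 21 genes, HBC4 had the largest G4 minus control change of the 3 lines in 18, and PC-3 or MKN74 a larger one in 3 (PYCARD, CRCT1 and BST2), a description without a test. These genes were chosen by the HBC4 change minus the mean change of the other lines. That choice favours genes in which HBC4 changed most, so the count of 18 adds no support. HMGA2, an architectural chromatin protein, differed by -4.06 in G4 arrays and -5.18 in control arrays. ESR1 differed by 2.81 in G4 arrays and 3.77 in control arrays (change -0.96 ± 0.16, adjusted p = 0.0488). The count of 49 dropped to between 9 and 41 when any 1 array was left out, the lowest without the HBC4 array of the reagent alone. Not all of these genes were among the 49: 8 of the 9 were, and 32 of the 41 without the AS1411 array of PC-3. Without the (uuaggg)4 array of HBC4, 20 of 32 were. Averaged probe sets gave 65 genes, 31 of them shared with the 49.

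**Figure D5:**
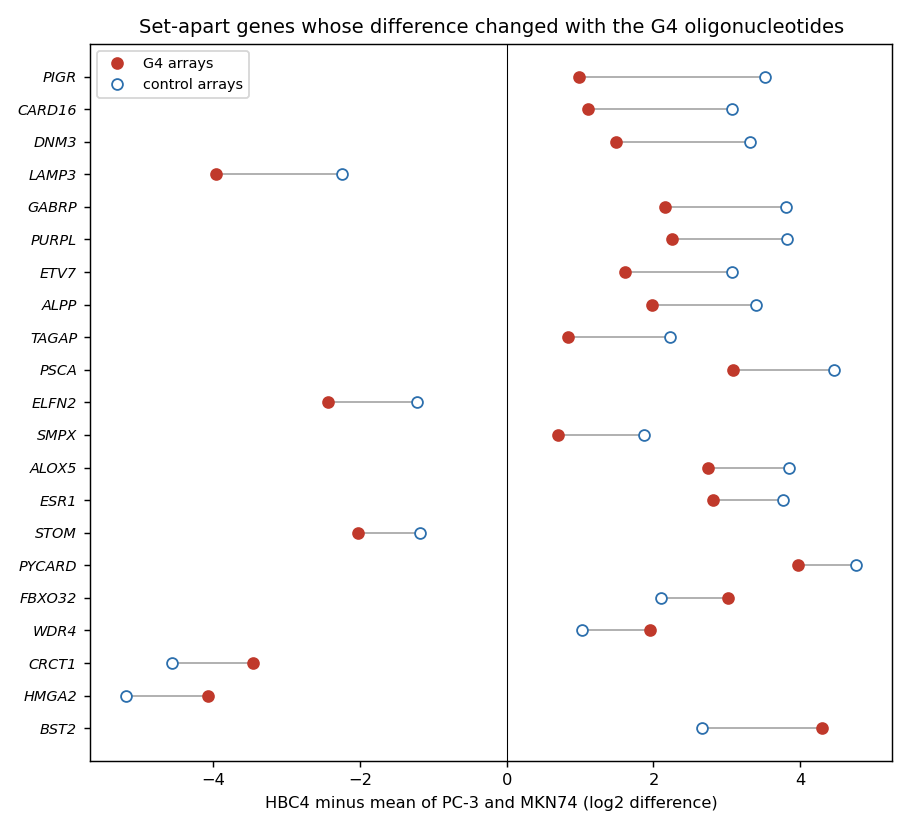
For the 21 set-apart genes whose difference changed with the G4 oligonucleotides, filled points give the HBC4 difference from the mean of PC-3 and MKN74 in the G4 arrays and open points that in the control arrays, in log2. Both points of every gene lie on the same side of 0, which the call requires, and PIGR shows the widest gap (0.98 against 3.51).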

How the data were processed

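Expression was measured on 12 arrays, and the deposited values are log2 expression values, for which the submitters' processing notes name RMA without a version. The authors' table has a median of 0 for each of its 54675 probe sets (within 5e-07), and how this was done is not given in the sources here; base 2 was inferred, the highest value being 11.2. Control probe sets (62), those naming several genes (1801) and those unnamed here (11721) were left out, leaving 41091. Genes were named through the 2016 platform annotation and checked against RefSeq (41037 matched, 0 changed).

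Models with cell line and treatment as block (6 residual degrees of freedom) used limma 3.58.1 (R 4.3.3), with p-values adjusted over all 41091 probe sets. The block pairs arrays of the same treatment named by the labels: their deviations from the line means correlated at 0.124 to 0.291 between lines, within the wider range of -0.333 to 0.348 for arrays of different treatments. For the G4 comparison the model held line and oligonucleotide class per line, with the unlike treatments of a class as its replicates. A gene is represented by its probe set with the largest SD over the 12 arrays. The rule named the 20 highest and 12 lowest genes set apart, up to 6 members of each of 41 gene lists, the marker genes and 4 given markers; other genes were chosen after their values were seen. Members and lists were chosen with earlier results of these data known. In a fit tested on simulated data for the comparison of HBC4 with PC-3 and MKN74 (41091 probe sets), 200 of 200 shifted by 2 to 3 log2 units were recovered, and smaller shifts were not simulated. Alternatives were the block, quantile normalization, averaged probe sets, treatment subsets, a stricter minimum, a robust prior and each array left out.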

Additional observations from a re-analysis of the deposited data

Results flagged for a closer look

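For the following genes set apart in HBC4, the difference from PC-3 and MKN74 in the G4 arrays departed from that in the control arrays by the test of the change itself (limma, Benjamini-Hochberg). Among the genes higher in HBC4 the change was -2.53 for PIGR, -1.96 for CARD16, -1.84 for DNM3, -1.65 for GABRP, -1.57 for PURPL, -1.46 for ETV7, -1.42 for ALPP, -1.39 for TAGAP, -1.38 for PSCA, -1.18 for SMPX, -1.11 for ALOX5, -0.96 for ESR1 and -0.79 for PYCARD. It was 0.91 for FBXO32, 0.92 for WDR4 and 1.65 for BST2. Among the genes lower in HBC4 it was -1.71 for LAMP3, -1.22 for ELFN2, -0.85 for STOM, 1.11 for CRCT1 and 1.12 for HMGA2. Adjusted p-values ran from 4.14e-04 for CARD16 to 0.0488 for ESR1. Within the lines, the G4 mean minus the control mean was -2.39 in HBC4, 0.12 in PC-3 and 0.17 in MKN74 for PIGR, and -1.22 in HBC4, -3.95 in PC-3 and -1.79 in MKN74 for BST2. No array stood apart from the 3 others of its line in the 20 genes given array by array (60 groups, by Dixon's ratio).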

How the results depend on the processing

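Leaving out the treatment block gave 1502 genes set apart (870 higher and 632 lower), as with it, and the pairing by treatment changed no call. Each line has every treatment once, so the block cannot change the line differences or the overlap of arrays, only the p-values. With the block, the highest adjusted p among genes set apart was 0.00289 (limma, Benjamini-Hochberg). The equal count was thus nearly fixed in advance and adds no support. Quantile normalization gave 2091 (1163 higher, 928 lower) and 186 genes in the G4 comparison. Averaging probe sets gave 1040 (644 higher, 396 lower), of which 1027 were shared, and turned the sign of GFM1 and N4BP2L2. In the G4 comparison it gave 65 genes, of which 31 were shared with the main result. With both differences at least 2 on the log2 scale, 550 genes remained (369 higher, 181 lower). Control arrays alone gave 1570 and G4 arrays alone 1527. Leaving out 1 array gave 1490 to 1536 genes (861 to 897 higher, 629 to 645 lower) and 9 to 41 in the G4 comparison: 9, 17, 32 and 15 without the HBC4 arrays of reagent alone, (uuaccc)4, (uuaggg)4 and AS1411, 16, 15, 29 and 41 without those of PC-3, and 12, 29, 28 and 16 without those of MKN74. Fewer arrays leave fewer degrees of freedom. The robust prior gave 1502 and 46. Of the 256 named genes, 226 stayed on their side of the rule with averaged probe sets and 30 lost it. The limits are 1 line per cancer type, 1 array per line and treatment, and centred values without signal over background.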

Other observations

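Several further gene groups set HBC4 apart. They were chosen after their values were seen and their counts support nothing beyond these arrays. Of all genes 4.4% were set apart as higher and 3.2% as lower. The Iroquois homeobox genes, position factors of the embryo, were higher in 4 of 5: IRX3 by 6.66 ± 0.15 (SE), IRX5 by 5.98 ± 0.12, IRX1 by 4.61 ± 0.08 and IRX2 by 3.74 ± 0.10. Of 10 Toll-like receptors 4 were higher, TLR4, which works with CD14 on lipopolysaccharide, by 5.73 ± 0.08, TLR1 by 4.70, TLR5 by 2.57 and TLR6 by 1.74. Of 14 kallikrein proteases KLK5 (5.33), KLK6 (5.10) and KLK10 (4.71) were higher.

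Inflammasome genes were higher in 4 of 13: the DNA sensor AIM2 (4.69), the adaptor PYCARD (4.36), CASP1 (2.89) and CARD16 (2.09), while the sensor NLRP1 differed by 0.21. Of 13 eicosanoid genes the phospholipase PLA2G4A (-5.54 ± 0.10) was lower together with PTGS2 and HPGD, and ALOX5 (3.30), the first enzyme of leukotriene synthesis, and its partner ALOX5AP (2.36) were higher.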
